A study of Rattus norvegicus with 4 samples.

Results

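The genes described here are 10 heat shock chaperones, Hsp90aa1, Hsp90ab1, Hspa8, Hsph1, Dnaja1, Dnajb1, Dnajb4, Hspb1, Hspd1 and Hspe1. They were taken by symbol from the 30560 gene rows of the deposited single-cell matrices, and each symbol matched 1 row. Molecular chaperones bind unfolded or newly made proteins and keep them from aggregating. In the cytosol Hsp70 proteins, helped by J-domain proteins and nucleotide exchange factors, hand clients on to Hsp90, small heat shock proteins hold unfolding proteins, and a chaperonin of Hspd1 with its lid Hspe1 folds proteins inside mitochondria. Many of these genes are induced together by heat shock factor 1 (HSF1) when proteins unfold, and enzymatic or mechanical tissue dissociation can raise them too.

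Cells of the subcutaneous fascia at the abdominal midline of rats, the site of the acupoints, were profiled by droplet 3' single-cell RNA sequencing in 4 libraries. By their titles, 2 libraries came from dysenteric rats after acupuncture and 2 from dysenteric rats without it. Dysentery had been induced with Salmonella in both groups, and no library came from healthy rats. The treatment field of all 4 libraries names the opposite group to the title. The titles, the sample descriptions and the series' design text name the same group, and the titles were used here; every sign below would turn if the treatment field were the right one. The rats' strain, age and number were not given in the sources used here, so p-values measure the spread between libraries, which may be technical.

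The libraries held 8930 and 10060 cells in the acupuncture group and 7965 and 11327 cells in the dysentery group, with 70499776 and 93897006 unique molecular identifiers (UMIs, one per captured RNA molecule) against 53066666 and 79461544. Dysentery replicate 1 stood apart, with 16.01% of its cells above the mitochondrial limit of 20%, against 5.11% to 7.17% in the other 3. Pairs of libraries shared 19 to 32 cell barcodes. Of 38282 cells, 32187 were kept and 27933 fell into a class by marker genes, none of which is a chaperone. Tests were run in the 7 classes for which each library held 30 or more cells. Fibroblast/telocyte-like cells (Dcn in 99.92% and Col1a1 in 99.62% of them, Cd34 in 38.59%) numbered 3905 and 3637 in the acupuncture libraries and 2735 and 6084 in the dysentery libraries. Macrophage-like cells (C1qa in 99.76%) numbered 1796 and 2288 against 539 and 857. The class called monocyte-like is marked by S100a4 (99.66%) and Ccr2 (89.49%) but has Fcnb in only 18.41% and Ly6c in 24.38%.

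Because HSF1 induces many of these genes, the 250 bases before the gene start were read for the letters that HSF1 binds, which are inverted repeats of GAA. The RefSeq promoter table of the rat build GRCr8 held 8 of the 10 genes, all but Hsp90aa1 and Dnajb4. The search was for GAANNTTC or TTCNNGAA, a pair of repeats, and for 3 repeats, in which a further unit follows in the alternating order after 2 free letters, so that 2 pairs overlap. Each form of the pair is its own reverse complement, and the 2 forms with 3 repeats are each other's, so both strands are covered. A pair was found in 7 of the 8 chaperone windows, all but that of Hsp90ab1, and in 13.5% of the 33469 windows of the table. A run of 3 repeats was found in 4 of the 8, those of Hspa8, Hsph1, Hspd1 and Hspe1, and in 0.663% of all windows. The 4 windows below, with matches in capitals, show a chaperone with repeats at 2 places (Hspa8), a pair and a run of 3 (Hsph1), a single pair next to the start (Dnajb1) and a longer run of repeats (Hspd1). They lie at chr8:50080264-50080513 on the plus strand, chr12:10427118-10427367 on the plus strand, chr19:41431142-41431391 on the minus strand and chr9:64084038-64084287 on the minus strand.
Hspa8: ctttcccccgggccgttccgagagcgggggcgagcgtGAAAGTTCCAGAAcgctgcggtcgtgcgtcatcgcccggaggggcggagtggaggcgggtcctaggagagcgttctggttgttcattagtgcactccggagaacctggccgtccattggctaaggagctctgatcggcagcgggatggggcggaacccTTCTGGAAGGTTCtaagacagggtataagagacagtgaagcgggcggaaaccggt
Hsph1: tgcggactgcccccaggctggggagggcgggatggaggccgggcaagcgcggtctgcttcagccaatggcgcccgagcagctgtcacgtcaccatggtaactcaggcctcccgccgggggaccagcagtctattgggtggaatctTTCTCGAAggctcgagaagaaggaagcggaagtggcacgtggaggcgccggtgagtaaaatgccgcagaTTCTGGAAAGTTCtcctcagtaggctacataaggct
Dnajb1: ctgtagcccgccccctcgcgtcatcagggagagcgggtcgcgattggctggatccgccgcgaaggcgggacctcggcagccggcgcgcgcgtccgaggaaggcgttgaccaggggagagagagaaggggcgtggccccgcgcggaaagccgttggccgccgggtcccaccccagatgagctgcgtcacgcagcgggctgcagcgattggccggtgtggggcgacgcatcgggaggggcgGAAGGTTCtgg
Hspd1: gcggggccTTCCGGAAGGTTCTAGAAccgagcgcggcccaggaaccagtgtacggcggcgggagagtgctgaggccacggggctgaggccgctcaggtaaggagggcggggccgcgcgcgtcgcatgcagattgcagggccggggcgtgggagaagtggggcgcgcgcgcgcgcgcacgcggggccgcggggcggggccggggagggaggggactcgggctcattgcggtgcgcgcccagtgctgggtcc
Hspd1 and Hspe1 lie head to head, so the Hspe1 window (chr9:64084077-64084326, plus strand) holds the same run read from the other strand. A match describes letters in the reference and is not a measured binding site.

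In fibroblast/telocyte-like cells 6 of the 10 chaperones rose with acupuncture and none fell: Hsp90aa1, Hsph1, Dnaja1, Dnajb1, Dnajb4 and Hspb1. The changes were 1.30 to 2.17 on the log2 scale. Of the 13139 genes tested in these cells, 2.39% were called in either direction and 1.72% as higher (edgeR's quasi-likelihood test on UMIs summed per library, Benjamini-Hochberg adjusted p under 0.05). Hspa8, Hsp90ab1, Hspd1 and Hspe1 did not pass. In all 10 genes both acupuncture libraries lay above both dysentery libraries, an order seen in 24% of the genes tested. Levels are counts per 1000000 UMIs of the class sum in a library (CPM). The 10 genes together made up 4454 and 4971 CPM in acupuncture libraries, against 2718 and 2382 in dysentery libraries. Their median log2 change was 1.36, against -0.0057 over all genes. The 10 genes were chosen with earlier results of these data known, so the values over all genes are not an independent background.

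**Figure D1:**
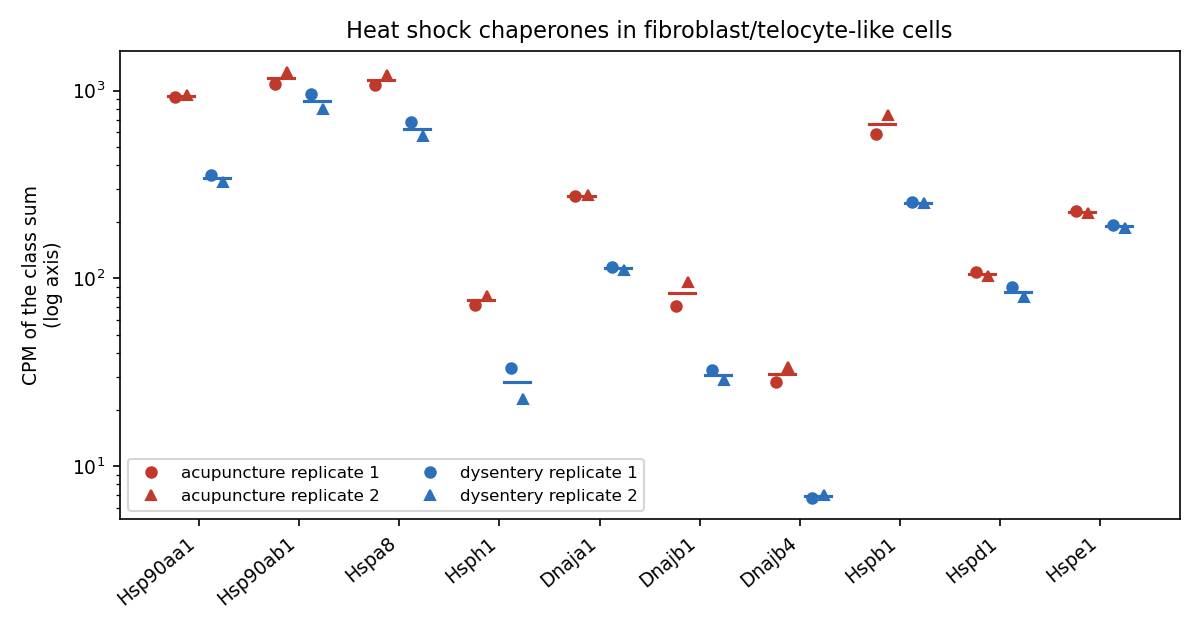
CPM of the summed fibroblast/telocyte-like cells (log axis) for each chaperone, with 2 acupuncture libraries (red) left of 2 dysentery libraries (blue) and bars at the group means. The groups are widest apart for Dnajb4, at 27.98 and 33.57 against 6.78 and 7.03, and close for Hspe1, at 229.6 and 223.3 against 193.6 and 186.5.

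The 2 cytosolic Hsp90 genes lay on either side of the threshold. Hsp90aa1, the stress-inducible Hsp90, had 929.8 and 952.7 CPM in acupuncture libraries, against 356.1 and 325.1 in dysentery libraries. Replicates differed little beside the gap between groups, and the log2 change was 1.49 ± 0.14 (SE, adjusted p = 0.0102). Hsp90ab1, the constitutive form, had 1086 and 1256 CPM with acupuncture, against 957.1 and 797.5 with dysentery. The groups did not overlap, but the log2 change of 0.44 ± 0.17 did not pass (adjusted p = 0.239).

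Among Hsp70 genes, Hspa8, the constitutive cytosolic Hsp70, had 1069 and 1204 CPM with acupuncture and 677.1 and 572.8 with dysentery. Its log2 difference of 0.89 ± 0.17 lay just outside the threshold (adjusted p = 0.0601). Hsph1, a nucleotide exchange factor of Hsp70, had 72.09 and 80.94 CPM in acupuncture libraries, against 33.32 and 22.7 in dysentery libraries. It rose by 1.48 ± 0.19 (adjusted p = 0.0261). The inducible Hsp70 genes Hspa1a and Hspa1b were not analysed here.

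All 3 J-domain genes, whose proteins deliver clients to Hsp70 and start its ATPase cycle, rose. Dnajb4 had 27.98 and 33.57 CPM with acupuncture, against 6.78 and 7.03 with dysentery, a log2 change of 2.17 ± 0.17 (adjusted p = 0.00869). Those levels rest on 859 and 1226 UMIs against 140 and 290. Dnajb1, a J-domain protein that is strongly heat-inducible, had 71.7 and 95.91 CPM with acupuncture and 32.5 and 28.7 with dysentery (log2 change 1.48 ± 0.20, adjusted p = 0.0268). Dnaja1 had 274.5 and 277.3 CPM with acupuncture and 114.5 and 111.5 with dysentery (1.30 ± 0.12, adjusted p = 0.0101). The 2 acupuncture libraries were nearly level for Dnaja1 and further apart for Dnajb1.

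Hspb1, the small heat shock protein also known as Hsp27, had 585.5 and 744.5 CPM in acupuncture libraries, against 256.3 and 250.7 in dysentery libraries. It rose by 1.42 ± 0.19 (adjusted p = 0.0272). The mitochondrial pair gave smaller differences. Hspd1 had 108 and 102.8 CPM with acupuncture and 90.29 and 79.79 with dysentery, a log2 difference of 0.33 ± 0.10 (adjusted p = 0.160). Hspe1 had 229.6 and 223.3 with acupuncture and 193.6 and 186.5 with dysentery, a difference of 0.27 ± 0.11 (adjusted p = 0.244). Hspa8, Hspd1 and Hspe1 have processed pseudogenes, among which the counting could divide reads.

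The count of 6 depended on 1 library. Without acupuncture replicate 2 only Dnajb4 passed, at 1.95 ± 0.15 (adjusted p = 0.0291; 50 of 13578 genes called), while the other 5 kept log2 changes of 1.15 to 1.39 with adjusted p of 0.0613 to 0.145. Leaving out each of the other libraries changed the count less, and the share over all genes is not given for those fits. Macrophage marker genes summed to 161.2 and 120.3 CPM of the fibroblast/telocyte-like sums with acupuncture, against 106.1 and 70.27 with dysentery, with 6 of 10 markers higher in both acupuncture libraries. Neutrophil markers summed to 59.62 and 22.15 against 140.8 and 18.14, and none of the 7 was higher in both. The part of such RNA in the chaperone values was not tested.

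The share of fibroblast/telocyte-like cells with a UMI was compared after thinning each cell to 2000 UMIs, which left out 326 to 519 shallower cells per library. All 10 chaperones were found in a larger share of cells in both acupuncture libraries than in either dysentery library. How often this order holds among all genes was not counted for shares, so the 10 have no background beside them. Hsp90aa1 showed a difference of 21.5 percentage points. Hsp90aa1 was found in 64.89% and 69.64% of cells with acupuncture, against 48.28% and 43.29% with dysentery (82.36% and 85.68% against 76.56% and 74.67% before thinning). Dnaja1 was found in 33.57% and 34.59% against 18.85% and 19.14%, and Hspb1 in 40.42% and 51.29% against 32.59% and 34.99%. Dnajb4 was found in 4.18% and 5.12% against 1.29% and 1.44%. As a measure of free Hspb1 RNA only, T cell-like and neutrophil-like cells were read at the same thinned depth. Hspb1 was found in 0% (0 of 238, which allows a share of up to 1.26%) and 0.383% of T cell-like cells with acupuncture, against 0.949% and 0.526% with dysentery. Neutrophil-like cells went the other way, with Hspb1 in 2.525% and 3.03% with acupuncture. With dysentery it was in 0 of 188 and 0 of 48, which allows up to 1.596% and 6.25%. With 2 libraries against 2 the smallest two-sided exact permutation p is 0.3333, which each of these differences has. The Hspb1 shares of monocyte-like and NK/ILC-like cells overlapped between groups. Other fibroblast RNA was common in T cell-like cells of all libraries together, before thinning. Its markers ranged from Cd34 in 0.29% to Dcn in 48.83% and Col3a1 in 56.31% of those cells. The part of free RNA in the chaperone shares was not tested.

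The middle of the distribution over cells lay higher as well as its top. The median cell held 7 and 8 UMIs of the 10 chaperones in 2000 with acupuncture, against 5 and 4 with dysentery, a difference of 3 (exact permutation p = 0.3333, the smallest possible). The lower quartile was 4 and 5 with acupuncture and 3 and 3 with dysentery, and the 90th percentile was 15 and 17 against 9 and 8. In acupuncture libraries cells with a Dnajb1 UMI had on average 11.15 and 11.72 UMIs of the other 9 chaperones, against 7.37 and 8.54 in cells without one. In dysentery libraries the same averages were 5.57 and 4.62 with a Dnajb1 UMI and 4.98 and 4.55 without. A wider gap, over all 10 chaperones and not 9, was seen for Atf3, an immediate early transcription factor. Cells with an Atf3 UMI held 12.32 and 12.02 chaperone UMIs in acupuncture libraries, against 5.83 and 6.96 in cells without. In dysentery libraries they held 5.84 and 5.23, against 5.04 and 4.58.

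**Figure D2:**
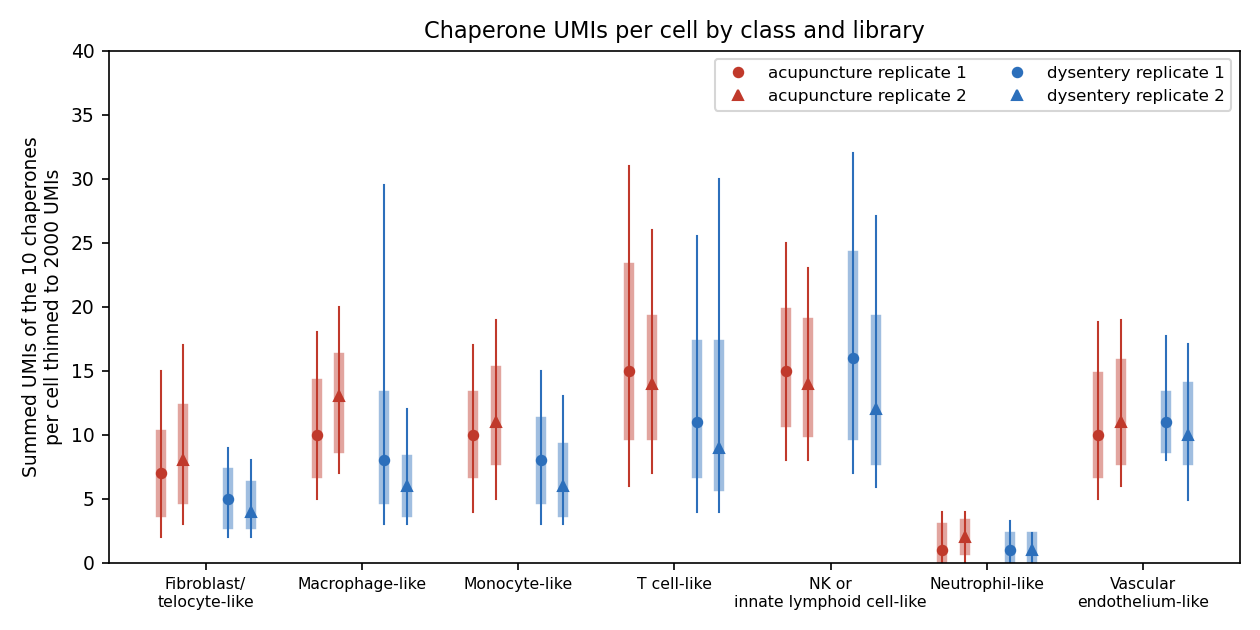
Summed UMIs of the 10 chaperones per cell after thinning to 2000 UMIs, by class and library. Symbols are medians, thick bars quartiles and thin lines the 10th to 90th percentile. Fibroblast/telocyte-like medians are 7 and 8 with acupuncture and 5 and 4 with dysentery, and the 90th percentile of macrophage-like cells reaches 29.5 in dysentery replicate 1.

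Has1, which encodes a hyaluronan synthase, marks some of the fascia fibroblasts, and the chaperone change was compared between cells with and without it. Cells with a Has1 UMI were 44.2% and 43.77% of the class with acupuncture, against 26.29% and 34.81% with dysentery. They were also deeper, with medians of 9932 and 13587 UMIs against 9511 and 7793, while cells without a Has1 UMI had 5235 and 5381 against 6557 and 5832. In cells with a Has1 UMI 7 chaperones rose and none fell (5.09% of 12223 genes called), Dnajb4 by 2.63 ± 0.16 and Hspb1 by 1.71 ± 0.15. In cells without one no chaperone passed edgeR's adjusted threshold (0.834% of 12109 genes called), with log2 differences of 0.27 to 1.10.

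The difference between those changes was tested with the library as a block and was called for 7 of the 10 chaperones, where 2.45% of 11993 genes were called and 2.2% in the same direction. It was 1.55 ± 0.19 for Dnajb4 (adjusted p = 0.000693) and 1.36 ± 0.17 for Hspb1 (adjusted p = 0.000986). Dnajb1 (1.13 ± 0.15), Hsp90aa1 (1.01 ± 0.15), Hsph1 (0.92 ± 0.12), Dnaja1 (0.92 ± 0.15) and Hspa8 (0.72 ± 0.13) followed. Hsp90ab1, Hspd1 and Hspe1 gave 0.22, 0.09 and -0.0068 and were not called. The count was lowest when dysentery replicate 2 was left out. It changed less or not at all without each of the others, for which the share over all genes is not given. The levels of Hspb1 and Hsp90aa1 show where the gap lies. Hspb1 had 849.8 and 958.2 CPM in Has1-positive cells with acupuncture and 226.2 and 405 in Has1-negative cells of the same libraries. In dysentery libraries it had 288.9 and 272.8 with a Has1 UMI and 240.5 and 235.7 without. Hspb1 was the only chaperone whose groups overlapped in Has1-negative cells. Hsp90aa1 there had 468 and 619.7 CPM with acupuncture, against 336.7 and 313.1 with dysentery. In Has1-positive cells it had 1269 and 1162 against 396 and 342.9. After thinning to 2000 UMIs the median Has1-positive cell held 9 and 10 chaperone UMIs with acupuncture, against 5 and 4 with dysentery. The median Has1-negative cell held 5 and 6 against 5 and 4. The Has1 groups were set on unthinned counts, and only the chaperone counts were thinned. The part of cell depth in whether a Has1 UMI is seen was therefore not tested. The Has1 groups were formed after a split by Has1 was known to matter in these data.

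**Figure D3:**
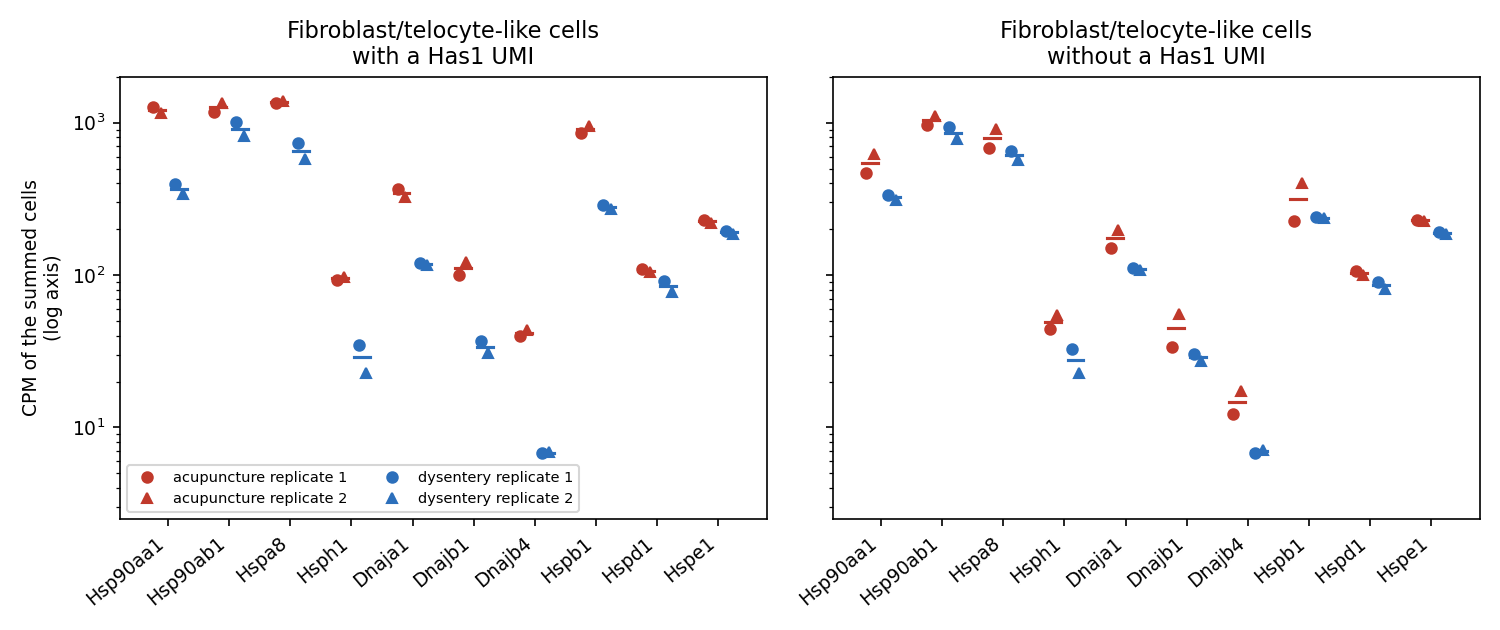
CPM (log axis) of each chaperone in fibroblast/telocyte-like cells with a Has1 UMI (left) and without one (right), 2 acupuncture libraries in red left of 2 dysentery libraries in blue, bars at group means. For Dnajb4 the groups are 39.58 and 43.77 against 6.8 and 6.87 in the left panel and 12.22 and 17.36 against 6.77 and 7.13 in the right panel.

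In macrophage-like cells none of the 10 chaperones passed edgeR's adjusted threshold, where 2.05% of 11071 genes were called. At an unadjusted p under 0.05 there were 2, Hspa8 and Hspe1, beside 20.2% of all genes, and DESeq2 called 1, Hspa8, among 559 genes. Hspa8 had 1701 and 2036 CPM with acupuncture, against 1363 and 938.3 with dysentery (log2 difference 0.86 ± 0.21, adjusted p = 0.103). Hspe1 had 280.2 and 314 against 248.2 and 210.8 (0.54 ± 0.14, adjusted p = 0.109). In 6 genes (Hspa8, Dnajb1, Dnaja1, Hsp90aa1, Hspb1 and Hspe1) both acupuncture libraries lay above both dysentery libraries, an order seen in 14.9% of the genes tested.

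The 2 dysentery libraries disagreed in these cells. Dnajb1 had 172.7 and 226 CPM with acupuncture, against 164.1 and 67.84 with dysentery. Hsp90aa1 had 1067 and 1182 against 1057 and 458.9. Hsph1 had 69.63 and 93.19 against 141.1 and 43.98, and Hspb1 had 76.67 and 184.2 against 72.67 and 10.06. Dysentery replicate 1 lay beside the acupuncture libraries for each of these genes, or above them for Hsph1, and replicate 2 lay far below. Without dysentery replicate 1, 6 chaperones were called as higher with acupuncture, with log2 changes of 1.17 for Hspa8 to 3.87 for Hspb1, where 312 of 11758 genes were called. Without dysentery replicate 2 none was, where 368 of 11853 genes were called. Monocyte markers summed to 1579 and 1456 CPM of the macrophage-like sums with acupuncture, against 2583 and 3739 with dysentery, with 1 of 6 higher in both acupuncture libraries. Fibroblast markers summed to 522.4 and 625.9 against 1042 and 1070, with 1 of 10 higher in both. The part of such RNA in the macrophage-like values was not tested.

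Dysentery replicate 1 held a tail of cells with many chaperone UMIs. Its lower quartile and median also lay above those of dysentery replicate 2, while the 10th percentile was 3 in both. The median macrophage-like cell held 10 and 13 chaperone UMIs in 2000 with acupuncture, against 8 and 6 with dysentery, and the lower quartiles were 7 and 9 against 5 and 4. Macrophage-like cells with at least 25 chaperone UMIs in 2000, a limit set after the values were seen, were 2.38% (95% exact Clopper-Pearson interval 1.72% to 3.20%) and 3.26% (2.57% to 4.08%) of the class in acupuncture libraries. They were 13% (10.2% to 16.3%, 66 of 506 cells) in dysentery replicate 1 and 0.25% (0.0303% to 0.900%) in dysentery replicate 2. In dysentery replicate 1 these cells had a median of 4361 UMIs and 3.26% mitochondrial UMIs, against 7210 and 4.71% in the rest of the class. The intervals cover counting error only. By library, 11.1% to 19.8% of T cell-like and 8.89% to 22.7% of NK/ILC-like cells passed this limit, so such a share is not particular to macrophage-like cells. In fibroblast/telocyte-like cells the same limit was passed by 1.60% and 1.65% of cells with acupuncture, against 0% (0 of 2409, which allows a share of up to 0.125%) and 0.018% with dysentery.

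Across cell types the levels of each chaperone had an order of their own. Hspb1 was highest in vascular endothelium-like cells, at 1172 and 1225 CPM with acupuncture and 1394 and 1252 with dysentery, above fibroblast/telocyte-like cells in all 4 libraries. Its means over 4 libraries were 85.9 in macrophage-like cells and 5.09 to 10.2 in the other 4 classes, whose ranges overlapped. The other 9 chaperones were highest on average in T cell-like or in natural killer or innate lymphoid (NK/ILC-like) cells, whose ranges overlapped for all 9. They were lowest in neutrophil-like cells, except Dnaja1, which was lowest in fibroblast/telocyte-like cells (mean 194.4, against 209.8 in neutrophil-like cells, with overlapping ranges). Hsp90ab1 was highest in NK/ILC-like cells in each of the 4 libraries, with a mean of 3618 CPM and 2968 in T cell-like cells. These values are a description, and the gene-by-gene order of neighbouring classes mostly lies within their spread.

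**Figure D4:**
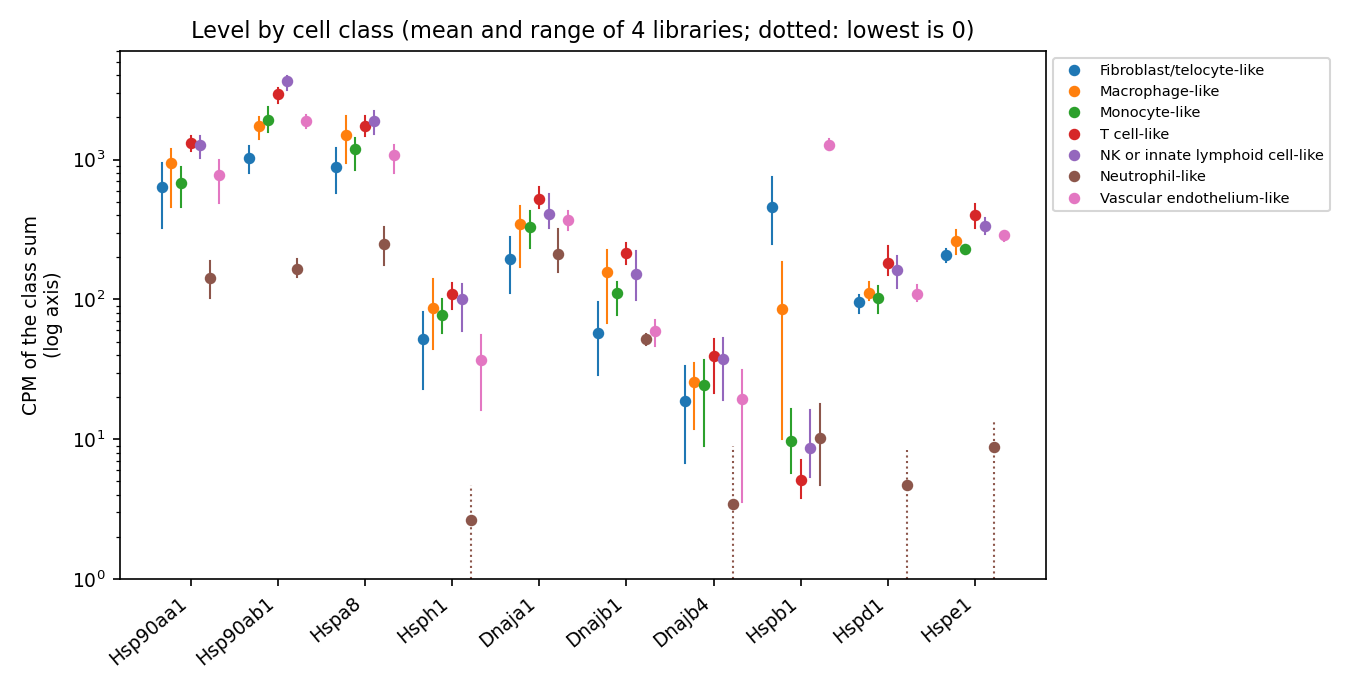
CPM of the class sum (log axis) for each chaperone in 7 cell classes; points are means and lines ranges over 4 libraries, dotted where the lowest library is at 0. Hspb1 has the widest spread between classes, from a mean of 1261 in vascular endothelium-like to 5.09 in T cell-like cells.

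Fibroblast/telocyte-like cells were set against macrophage-like cells with the library as a block. Hspb1 was higher in fibroblast/telocyte-like cells by 2.70 ± 0.42 on the log2 scale (adjusted p = 0.000658), and 8 chaperones were lower, from -0.26 for Hspd1 to -1.55 ± 0.19 for Dnajb1. Dnajb4 did not pass (-0.65 ± 0.31, adjusted p = 0.0980). Among all 12794 genes 67.3% were called in this comparison, 35.9% as higher and 31.4% as lower. The count of 9 fell to 5 without dysentery replicate 1, where 8329 of 13027 genes were called.

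In monocyte-like cells none passed edgeR's adjusted threshold (0.685% of 10660 genes called), with 8 of 10 at an unadjusted p under 0.05, beside 15% of all genes. Dnaja1 was nearest, at 431.3 and 408.3 CPM with acupuncture and 239.4 and 232.2 with dysentery (0.84 ± 0.12, adjusted p = 0.0531). Hsp90aa1 had 824.9 and 886.5 against 546 and 457.8 (0.77 ± 0.13, adjusted p = 0.0678). DESeq2 called these 2, among 300 genes.

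In T cell-like cells none of the 9 tested passed either tool's threshold (0.553% of 7962 genes called by edgeR), with 3 at an unadjusted p under 0.05, Dnajb4, Hspa8 and Dnaja1, beside 8.6% of all genes. Dnajb4 had 52.15 and 48.98 CPM with acupuncture, against 34.75 and 21.44 with dysentery. Vascular endothelium-like cells gave none of 10 by either tool (1.34% of 6482 genes called by edgeR) and 3 unadjusted, Hsp90aa1, Hsph1 and Dnajb4, beside 14.7% of all genes. Hsp90aa1 there had 994.2 and 972 CPM with acupuncture, against 486.3 and 639.6 with dysentery (0.70 ± 0.18, adjusted p = 0.0747).

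NK/ILC-like cells gave none of 9 by either tool (0.536% of 6343 genes called by edgeR) and 4 unadjusted, beside 11.2% of all genes. Hsph1 had 59.36 and 88.41 CPM with acupuncture, below the 126 and 129.5 with dysentery (-0.87 ± 0.22, adjusted p = 0.168). Hsp90aa1 was also below, at 1194 and 1023 against 1472 and 1399, and Dnajb1 overlapped, at 149.3 and 99.24 against 221.2 and 139. Hspd1 lay above, at 205.1 and 185.8 against 134.2 and 120. In neutrophil-like cells 5 chaperones had enough UMIs to be tested and none passed either tool (0.249% of 3615 genes called by edgeR), with 1 unadjusted, beside 10.6% of all genes. That was Hsp90aa1, at 163.3 and 189.1 CPM with acupuncture, against 102.1 and 113.7 with dysentery. Hspb1, Hsph1, Dnajb4, Hspd1 and Hspe1 stayed below 20 CPM there in every library.

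**Figure D5:**
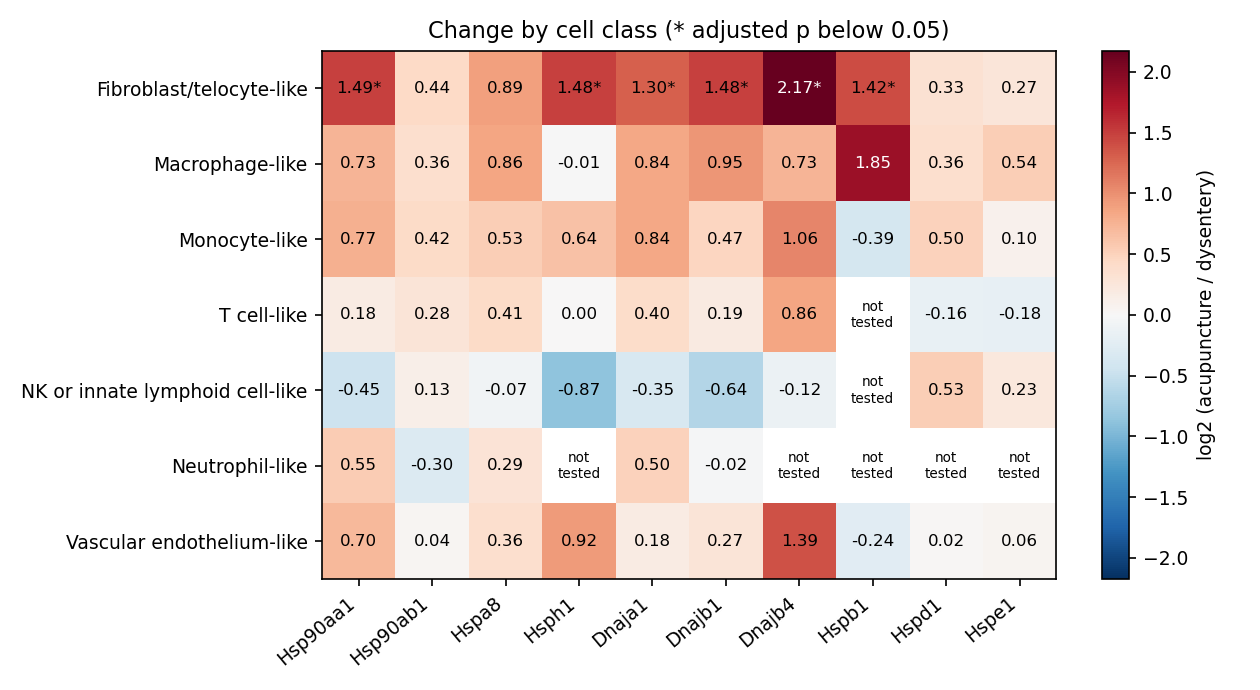
Log2 ratio of acupuncture over dysentery for each chaperone (columns) in each tested cell class (rows), from edgeR, with asterisks at an adjusted p below 0.05. The 6 asterisks are all in fibroblast/telocyte-like cells, and NK/ILC-like cells hold the lowest value, -0.87 for Hsph1.

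A call in one class and none in another does not show that the changes differ, so the change in fibroblast/telocyte-like cells was set against that in each other class, with the library as a block. Standard errors of these differences were largest against neutrophil-like cells, up to 1.44 for Hsph1. Against macrophage-like cells none of 10 differed by edgeR (1.78% of 12794 genes called; DESeq2 was not run for this test), with 2 unadjusted, Hsph1 (1.29 ± 0.30, adjusted p = 0.0628) and Dnajb4 (1.33 ± 0.35, adjusted p = 0.0967), beside 12.8% of all genes. Without dysentery replicate 2 the count was 5, where 621 of 12922 genes were called. Without dysentery replicate 1 it was 1, with the change lower in fibroblast/telocyte-like cells, where 607 of 13027 genes were called. Against NK/ILC-like cells 6 differed (1.39% of 12121 genes called), from 1.03 ± 0.27 for Hspa8 to 2.45 ± 0.26 for Hsph1. That count was 3 without acupuncture replicate 1 (23 of 12193 genes called) and 0 without acupuncture replicate 2 (9 of 12258). Against vascular endothelium-like cells 3 differed (1.78% of 11894 genes called): Hspb1 by 1.59 ± 0.21, Dnajb1 by 1.18 ± 0.31 and Dnaja1 by 1.09 ± 0.22, and the count was 5 without dysentery replicate 1 (265 of 12304 genes called) and 2 without acupuncture replicate 2 (109 of 11898) or dysentery replicate 2 (257 of 12020). Against T cell-like cells only Hsph1 differed, by 1.48 ± 0.28 (0.255% of 12136 genes called), and none did without acupuncture replicate 2 (9 of 12242 genes called). The count was 2 without dysentery replicate 1 (115 of 12697) and 5 without dysentery replicate 2 (134 of 12259). None differed against monocyte-like (0.233% of 12462 genes called) or neutrophil-like cells (1.01% of 11641 genes called), although 2 did against monocyte-like cells when either dysentery library was left out (434 of 12849 genes called without replicate 1 and 303 of 12598 without replicate 2).

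When all kept cells of a library were summed, no chaperone passed edgeR's adjusted threshold, where 0% of 15186 genes were called. At an unadjusted p under 0.05 there were 8 chaperones and 16.5% of all genes, and DESeq2 called 5 chaperones and 1019 genes. Those sums mix class shares with levels.

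Other chaperone systems, on lists compiled with results of these data known, gave few calls in fibroblast/telocyte-like cells. Of 15 tested genes around HSF1, 2 rose and none fell, with a median log2 change of 0.29. Bag3, a co-chaperone that HSF1 induces, had 109.7 and 124 CPM with acupuncture, against 58.85 and 56.32 with dysentery (1.04 ± 0.13, adjusted p = 0.0248). Of 17 Hsp90 and Hsp70 co-chaperones 1 rose and none fell, with a median of 0.12. That gene was Fkbp5, a glucocorticoid-induced Hsp90 partner, at 44.5 and 28.56 against 7.17 and 8.24 (2.23 ± 0.20, adjusted p = 0.0102).

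None of the 8 subunits of the cytosolic chaperonin passed, nor did any of 16 endoplasmic reticulum chaperone and unfolded protein response genes, nor any of 8 genes on the mitochondrial list, which includes Hsf4, a heat shock factor and not a mitochondrial protein. Their median log2 changes were 0.092, 0.087 and 0.043. The endoplasmic reticulum list summed to 3805 and 4089 CPM with acupuncture, against 3592 and 3802 with dysentery, with overlapping groups. In macrophage-like cells Fkbp5 (1.25 ± 0.21) and Atf4, a transcription factor of the integrated stress response (1.39 ± 0.20), rose, and no gene of these lists fell.

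Immediate early genes, which dissociation of tissue can also induce, moved with the chaperones in fibroblast/telocyte-like cells. Of 25 tested in fibroblast/telocyte-like cells 15 rose and none fell, with a median log2 change of 1.81. Atf3 had 808.7 and 899 CPM with acupuncture, against 38.94 and 38.81 with dysentery (4.48 ± 0.17, adjusted p = 0.000875). Egr1 (3.15 ± 0.16), Egr2 (3.11 ± 0.21) and Jun (2.60 ± 0.18) also rose. The list summed to 17750 and 20270 CPM with acupuncture, against 5369 and 6911 with dysentery. In macrophage-like cells 7 of 25 rose and none fell, among them Socs3 (2.45 ± 0.15), Ier3 (2.10 ± 0.29), Junb (1.94 ± 0.19) and Fosb (1.57 ± 0.13), and the list summed to 31780 and 35720 against 18200 and 11960. In neutrophil-like cells the list had a median log2 change of -0.42, against 0.29 for the 5 tested chaperones. In NK/ILC-like cells these medians were -0.20 and -0.12, and in T cell-like cells 0.82 and 0.19. Both were also positive in macrophage-like (1.35 and 0.73), monocyte-like (0.90 and 0.52) and vascular endothelium-like cells (0.40 and 0.23). The time between stimulus, dissection and dissociation was not given in the sources used here, so its part in the chaperone values was not tested.

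The genes whose levels were most like the mean of the 10 chaperones, over 28 sums of library and class, were ENSRNOG00000067892 (Pearson r = 0.915), Smco4 (0.905), Ptbp1 (0.905), Trmt10c (0.901) and Pcbp1 (0.9), of 10981 genes. The same 4 libraries stand behind all 28 points, which differ mostly by cell class. The chaperones' own r ranged from 0.971 for Hspa8 and 0.962 for Hsp90aa1 to -0.0494 for Hspb1.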

How the data were processed

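Single-cell libraries were processed by the authors with Cell Ranger 6.0.1 and STAR, per the submitters' processing notes, where mRatBN7.2 is listed beside GRCh38.p13 and no role is given for either build. The authors deposited unnormalized UMI counts, per the file headers. Cells with at least 300 genes, 500 UMIs and at most 20% mitochondrial UMIs (13 genes) were kept, and the highest Scrublet doublet scores, 0.8% per 1000 cells, were removed. A cell entered a class when it had UMIs of at least 3 of its markers, a score above 0.1 and a score 1.5 times the next; this rule was set after the files had been read, and 4254 cells entered no class. For each class the counts of a library were added up and tested with edgeR 4.0.16 (quasi-likelihood, TMM, filterByExpr, R 4.3.3), adjusted over all genes tested by Benjamini-Hochberg, with DESeq2 1.42.0 as the alternative. Errors of log2 changes are standard errors derived from the F statistic. CPM values are scaled to the class sum, without TMM. The fits were tested on simulated data with known changes. Depths per library are given with the results; 2 libraries per group limit the precision, and intervals cover counting error only. A chaperone was named in each class where it passed the filter, and of each other list up to 4 genes past the threshold. The members, lists and tests were chosen with earlier results of these data known. Alternatives were another scaling, tool, filter, gate, doublet and mitochondrial limit, thinning, and leaving out each library; the splits by Has1 and the comparisons of changes with 5 further classes were added after seeing the data. Promoter sequences are from RefSeq, GRCr8. A gene counted among the calls of the list around HSF1 is not reported here.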

Additional observations from a re-analysis of the deposited data

Results flagged for a closer look

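The change with acupuncture differed between fibroblast/telocyte-like cells with and without a Has1 UMI, by the test of that difference, for 7 chaperones. Of 11993 genes tested, 2.45% were called. The log2 change with a Has1 UMI minus the change without was 1.55 for Dnajb4, 1.36 for Hspb1, 1.13 for Dnajb1, 1.01 for Hsp90aa1, 0.923 for Hsph1, 0.918 for Dnaja1 and 0.721 for Hspa8. Has1-positive cells were deeper in all 4 libraries. They were 44.2% and 43.77% of the class with acupuncture, against 26.29% and 34.81% with dysentery. The split was made after Has1 was known to matter in these data.

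The change in fibroblast/telocyte-like cells also differed from that in some other classes, but for no chaperone against macrophage-like, monocyte-like or neutrophil-like cells. Against neutrophil-like cells few UMIs were counted and standard errors reached 1.44 for Hsph1 and 1.38 for Dnajb4, so a difference could be missed. Of all genes tested, 1.39% were called against NK/ILC-like, 1.78% against vascular endothelium-like and 0.255% against T cell-like cells. The calls depended on single libraries, as given above. Set against NK/ILC-like cells, the log2 difference between the changes was 2.45 for Hsph1, 2.32 for Dnajb4, 2.16 for Dnajb1, 2.03 for Hsp90aa1, 1.69 for Dnaja1 and 1.03 for Hspa8. NK/ILC-like cells numbered 85 and 92 in acupuncture libraries, against 400 and 146 in dysentery libraries. Set against vascular endothelium-like cells, it was 1.59 for Hspb1, 1.18 for Dnajb1 and 1.09 for Dnaja1. Set against T cell-like cells, it was 1.48 for Hsph1.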

How the results depend on the processing

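In fibroblast/telocyte-like cells the 6 calls became 7 with DESeq2, with no filter on low counts, in cells with UMIs of Cd34 and Pdgfra, and with the replicate number as a block. They stayed at 6 with RLE scaling, a mitochondrial limit of 10%, Scrublet scores kept, the stricter gate and thinning. Without Has1-positive cells the count was 0, and leaving out each library gave 1 to 6, the lowest without acupuncture replicate 2. The genes called overall numbered 314, against 863 with DESeq2, 744 with no filter and 567 with the block. In macrophage-like cells 0 became 1 with DESeq2, 7 with no filter and 0 to 6 without each library, the highest without dysentery replicate 1. Over the other 5 classes together 0 became 2 with DESeq2, 2 with no filter, 3 with the replicate block, 1 at the mitochondrial limit of 10%, 1 with Scrublet scores kept and 0 to 3 without each library; in monocyte-like cells 2 passed without dysentery replicate 1. In sums over all cells 0 became 5 with DESeq2. Where the genes called overall at a setting are not given, these counts stand without a share over all genes. They are then not a result about the chaperones apart from other genes. The difference of the change between fibroblast/telocyte-like and macrophage-like cells gave 0 to 5 without each library, and the level contrast of those classes 5 to 7. The median difference per fibroblast/telocyte-like cell was 1.5 UMIs when thinned to 1000 and 6.0 when thinned to 4000. Hsph1 in macrophage-like cells, at -0.01, turned to 0.0299 with no filter, 0.18 with the replicate block, 0.0045 with Scrublet scores kept and -0.62 to 1.06 without each library. Dnajb1 in monocyte-like cells turned to -0.14 under the stricter gate. The cause of these changes was not tested.

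Nothing in the labels says that replicate numbers pair the libraries, and 2 pairs are too few to tell: the deviations of same-numbered libraries correlated at -0.0379 (T cell-like) to 0.153 (fibroblast/telocyte-like) over the 7 classes. In neutrophil-like cells 5 chaperones had too few UMIs to be tested. Another scaling moved the median of all genes by at most 0.0108 in either direction on the log2 scale.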
